A study of Mus musculus with 26 samples.

Results

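The genes described here are 6 cytokine genes (Il1a, Il1b, Tnf, Il6, Il10 and Il18) and 4 genes that NF-kB signalling induces and that are named for its feedback or for TNF (Nfkbia, Nfkbiz, Tnfaip3 and Tnfaip2), 10 of the 31053 genes in the expression tables, chosen by symbol. They were followed in microglia of the mouse somatosensory (S1) cortex, in single-cell RNA-seq libraries in which each molecule is counted once through a unique molecular identifier (UMI). Pregnant C57Bl/6N wild-type dams received an intraperitoneal injection at E12.5 of poly(I:C), a double-stranded RNA mimic that triggers maternal immune activation (MIA), or of saline. Microglia were sorted from the cortex of the offspring, after removal of the meninges, as cells positive for Cd11b and Cx3cr1 and low in Cd45, at E13.5, E15.5 or postnatal day 14 (P14).

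There were 3 saline and 3 MIA libraries at E13.5 and at E15.5, each from embryos of mixed sex, and 4 saline and 2 MIA libraries at P14. The paper describes the embryonic samples as pools of embryos and the P14 cells as from 4 saline and 2 MIA mice. The spread between libraries is thus one between pools in the embryo and between mice at P14. The fourth P14 saline library arose because the replicate numbered 3 was deposited as a female and a male library. The labels name neither the dam nor the litter of a library, so p-values measure the spread between these libraries, part of which may be technical. Removal of the meninges and the Cd45-low gate act against border macrophages, and the share of cells with markers of these is given below.

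NF-kB is a family of dimeric transcription factors held in the cytoplasm by IkB proteins. Ligands of Toll-like, IL-1 and TNF receptors activate the IKK kinases, IkB is degraded, and the freed dimers induce cytokine genes together with the genes that end the signal. Nfkbia encodes IkBα, which retrieves NF-kB from the nucleus. Tnfaip3 encodes A20, a ubiquitin-editing enzyme that stops signalling from TNF and Toll-like receptors, Nfkbiz encodes the nuclear cofactor IkBζ, and Tnfaip2 was named as a TNF-induced gene. Microglia, the resident macrophages of the brain, are a main source of IL-1 and TNF in neural tissue.

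The 250 bases before the annotated start of a gene are shown for Nfkbia, Tnfaip3, Il6 and Tnfaip2, the members with a match to the κB consensus there, and for Il1b and Tnf, the cytokines whose richest cells are described below. Sequences are from RefSeq (build GRCm38.p6), are written 5′ to 3′ on the strand of the gene, and carry matches to the κB consensus on either strand in capitals. The order of the windows is chr12:55492648-55492897 (minus strand) for Nfkbia, chr10:19015411-19015660 (minus) for Tnfaip3, chr5:30012864-30013113 (plus) for Il6, chr12:111442411-111442660 (plus) for Tnfaip2, chr2:129371140-129371389 (minus) for Il1b and chr17:35202008-35202257 (minus) for Tnf.
Nfkbia: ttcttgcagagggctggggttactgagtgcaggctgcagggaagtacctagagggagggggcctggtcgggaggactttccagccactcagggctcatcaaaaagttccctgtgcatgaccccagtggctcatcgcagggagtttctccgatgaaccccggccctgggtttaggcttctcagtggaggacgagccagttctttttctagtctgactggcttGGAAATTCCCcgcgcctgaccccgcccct
Tnfaip3: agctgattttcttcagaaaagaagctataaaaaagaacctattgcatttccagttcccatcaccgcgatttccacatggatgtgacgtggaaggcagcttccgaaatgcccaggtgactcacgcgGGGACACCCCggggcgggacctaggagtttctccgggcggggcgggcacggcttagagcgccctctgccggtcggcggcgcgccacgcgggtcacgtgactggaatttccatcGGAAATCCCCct
Il6: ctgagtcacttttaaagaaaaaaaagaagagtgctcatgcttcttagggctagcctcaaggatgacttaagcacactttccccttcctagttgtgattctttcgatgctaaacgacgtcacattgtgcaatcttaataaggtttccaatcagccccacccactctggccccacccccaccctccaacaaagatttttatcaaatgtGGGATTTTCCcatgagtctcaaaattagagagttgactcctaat
Tnfaip2: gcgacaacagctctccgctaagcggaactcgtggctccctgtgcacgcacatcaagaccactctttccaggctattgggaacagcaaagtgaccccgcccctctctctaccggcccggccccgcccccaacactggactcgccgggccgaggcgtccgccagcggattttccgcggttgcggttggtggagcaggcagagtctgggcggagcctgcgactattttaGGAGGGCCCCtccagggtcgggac
Il1b: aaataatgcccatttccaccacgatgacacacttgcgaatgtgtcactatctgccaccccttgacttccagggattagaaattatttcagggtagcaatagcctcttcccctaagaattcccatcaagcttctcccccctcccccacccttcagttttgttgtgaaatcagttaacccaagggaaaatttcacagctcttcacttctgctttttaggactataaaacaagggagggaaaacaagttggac
Tnf: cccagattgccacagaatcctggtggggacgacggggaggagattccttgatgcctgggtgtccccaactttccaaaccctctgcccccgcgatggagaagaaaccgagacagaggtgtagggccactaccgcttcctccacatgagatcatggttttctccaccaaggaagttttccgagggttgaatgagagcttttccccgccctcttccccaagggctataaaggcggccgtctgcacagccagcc

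Windows were found for 8 of the 10 members, not for Il10 and Nfkbiz. A κB match lay 29 bases before the start in Nfkbia, 44 in Il6 and 24 in Tnfaip2, and Tnfaip3 held 2 matches, at 125 and 12 bases. A second annotated start of Tnfaip3, with the window chr10:19011964-19012213, had 0. Gene coordinates from another annotation begin Tnfaip3 at chr10:19015657 and Tnfaip2 at chr12:111442469, inside the windows shown. By those coordinates the matches of these genes lie after the start. The windows of Il1a, Il1b, Tnf and Il18 held none. Of 32851 promoter windows of this length, 7.25% held at least 1 match and 1.03% at least 2. A match describes letters in this window and shows no binding.

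After cells under 500 genes or over 20% mitochondrial UMIs were left out, the 18 libraries held 67847 cells, between 280 and 6375 per library. UMIs per library ranged from 6160925 to 105751888, and the median per cell fell in the range 7860–24493.5 at E13.5, 8482.5–11721 at E15.5 and 3682–6787 at P14. At least 3 of 10 microglia markers, with fewer neuron markers, were found in 93.8–97.5% of cells at E13.5, 79.5–95.9% at E15.5 and 98.5–99.4% at P14. Cells with neuron markers made up 1.07–3.47%, 2.40–11.4% and 0.100–0.289% in the same order. Cell barcodes recurred between libraries far more often than chance gives. E13.5 MIA 2 shared 258 of its 375 barcodes with the P14 saline 3 female library, where chance gives 0.0694%, and E13.5 MIA 1 shared 133 of 280 with P14 MIA 1. The cells concerned made up 1.52–70.1% of a library (2811 in all), and a barcode richer in another library carried 0.0115–10.2% of a library's UMIs, so results below are also given with shared barcodes removed where the removal changes a call.

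Levels are given in CPM, the UMIs of a gene per 1000000 UMIs of the library. Il10, the anti-inflammatory cytokine, had 4 UMIs in the 18 libraries, 2 of them in E15.5 MIA 1, and was too low for any test. The 4 UMIs lay in 4 of the 24554 cells at E15.5, and the cells of E13.5 and P14 had 0. The plot of levels shows the other 9 genes.

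**Figure D1:**
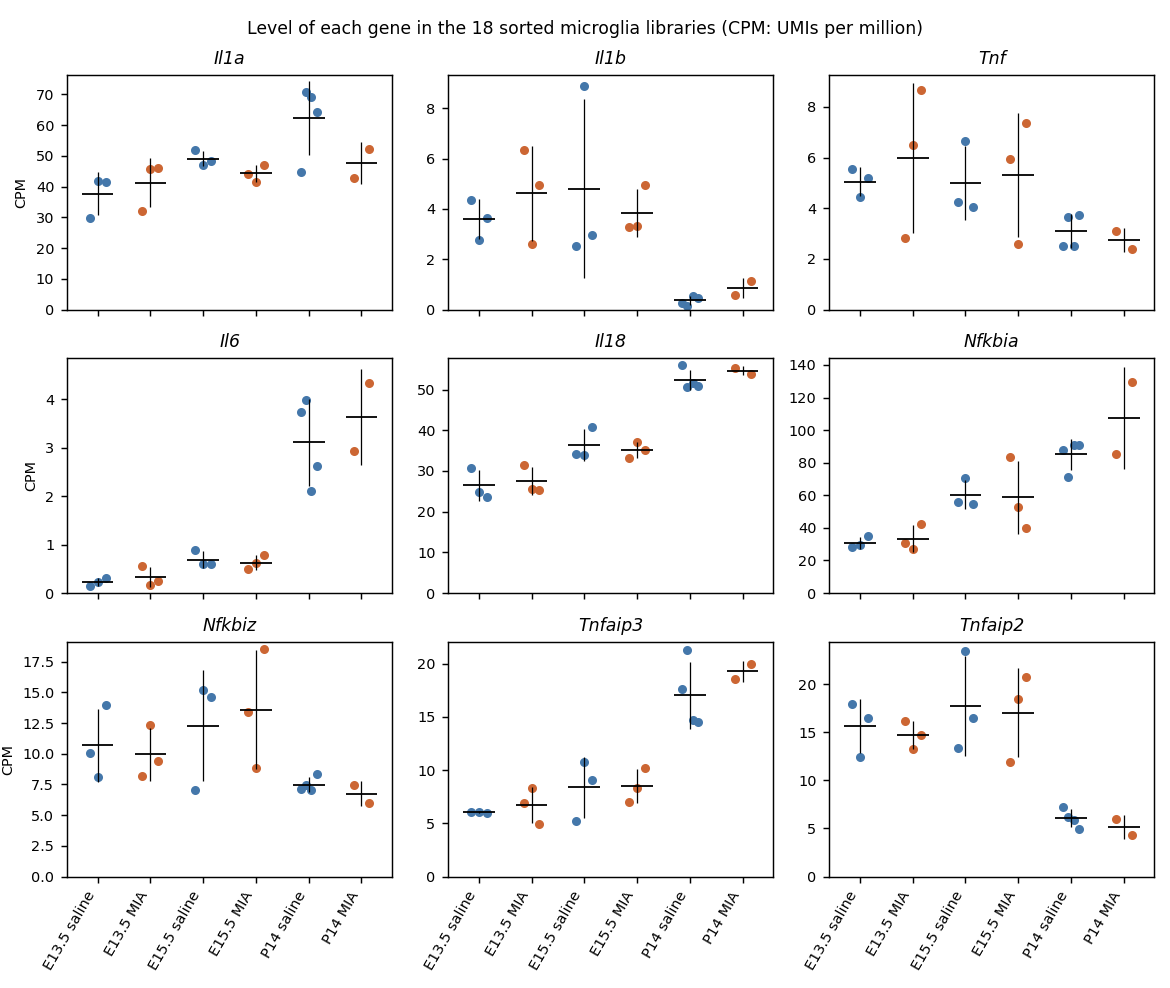
Level of 9 genes (CPM, linear axes from 0) in each of the 18 libraries, with saline libraries in blue and MIA libraries in orange; bars give the mean ± SD of a group (n = 3, except 4 P14 saline and 2 P14 MIA). Il1b lies at or under 1.14 CPM in all 6 P14 libraries and at or above 2.53 CPM in all 12 embryonic ones, and Il6 does the opposite, with at most 0.89 CPM in the embryo and at least 2.10 CPM at P14.

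Stage was the main axis of change between E15.5 and P14, and the members moved in opposite directions. Il1b and Tnfaip2 fell most, Nfkbiz fell, and Il6, Tnfaip3 and Il18 rose, in saline and in MIA alike. In saline 3 of the 9 tested members rose and 4 fell, beside 24.2% and 23.9% of all 15121 genes tested (48.0% in either direction). In MIA 4 rose and 3 fell, beside 17.8% and 20.3% of genes (38.1% in either direction). For 7 of the 9 genes in each treatment the libraries of the stages did not overlap, beside 55.8% of all genes in saline and 59.0% in MIA. A call on a member is thus to be read against a comparison in which many genes passed the test. Adjusted p-values are from edgeR's quasi-likelihood test with Benjamini-Hochberg adjustment over all genes tested, with a threshold of 0.05.

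Il1b, which encodes the precursor of IL-1β, was at 2.53, 8.91 and 2.97 CPM in the E15.5 saline libraries and at 3.27, 3.31 and 4.94 CPM in the E15.5 MIA libraries. At P14 it was at 0.27, 0.15, 0.56 and 0.47 CPM in saline and at 0.59 and 1.14 CPM in MIA. No P14 library reached the lowest E15.5 library. The log2 fold change was −3.88 ± 0.50 (SE) in saline (edgeR, adjusted p = 1.7e-05) and −2.28 ± 0.59 in MIA (adjusted p = 0.00654). The MIA change was −1.89 without P14 MIA 1 (adjusted p = 0.0834).

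The size of the MIA change in Il1b turned on 2 cells. One cell of P14 MIA 2 held 32 of that library's 37 Il1b UMIs, and one cell of P14 MIA 1 held 10 of 16. When the richest cell of each library was left out of the sum, a choice made once the values were known, the 2 P14 MIA libraries were at 0.22 and 0.15 CPM and the fold change was −4.18 in MIA (edgeR, adjusted p = 2.05e-04), beside −4.39 in saline (5.18e-06). The cell of P14 MIA 2 was a small one of 3154 UMIs with all 10 microglia markers and 0 of 8 blood myeloid markers, and it also held 27 UMIs of Il1a, 4 of Tnf, 12 of Nfkbia and 5 of Nfkbiz and, of the chemokine genes, 31 of Ccl3 and 34 of Ccl4. Neither cell had a shared barcode or was called a doublet.

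Tnfaip2 was at 13.3, 23.5 and 16.4 CPM in the E15.5 saline and 11.9, 18.5 and 20.8 CPM in the E15.5 MIA libraries. The P14 libraries gave 7.21, 6.24, 5.87 and 4.94 CPM in saline and 6.02 and 4.30 CPM in MIA, again with no overlap between the stages. Its log2 fold change was −1.73 ± 0.22 in saline (edgeR, adjusted p = 1.9e-05) and −1.87 ± 0.29 in MIA (1.54e-04). Nfkbiz fell by 0.88 ± 0.26 (SE) on the log2 scale in saline (adjusted p = 0.0106) and by 1.15 ± 0.32 in MIA (0.0110), from 7.08–15.2 and 8.84–18.5 CPM to 7.06–8.34 and 6.03–7.45 CPM. The saline call on Nfkbiz was lost without E15.5 saline 2 (−0.65, adjusted p = 0.0785) or saline 3 (−0.73, 0.0529), and the MIA call without P14 MIA 2 (−0.99, 0.115) or in cells thinned to 2000 UMIs (−0.67, 0.122).

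Tnf gave a weaker result. Its level was 4.26, 6.67 and 4.03 CPM in E15.5 saline, 5.96, 2.59 and 7.35 CPM in E15.5 MIA, 2.52, 3.64, 2.5 and 3.73 CPM in P14 saline and 3.08 and 2.40 CPM in P14 MIA. The saline stages did not overlap, whereas E15.5 MIA 2 lay within the P14 range. The log2 fold change was −0.87 ± 0.34 (SE) in saline (edgeR, adjusted p = 0.0474) and −1.08 ± 0.43 in MIA (0.0580). The saline call was lost in 6 of the 7 fits that left out 1 library (up to adjusted p = 0.248, without E15.5 saline 2), and it was lost without the richest cells (−0.71, 0.0989), with no filter on low counts (−0.88, 0.0531) and with both libraries of replicate 3 summed (−0.86, 0.0783). In MIA, Tnf passed the test without E15.5 MIA 2 (−1.39, adjusted p = 0.0149), in microglia-marker cells alone (−1.25, 0.0353) and with DESeq2 (−1.11, 0.0303).

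Il6, a cytokine that signals through gp130, was rare in the embryo. It was at 0.89, 0.60 and 0.59 CPM in E15.5 saline and 0.49, 0.61 and 0.78 CPM in E15.5 MIA, and at 3.74, 3.99, 2.10 and 2.62 CPM in P14 saline and 2.94 and 4.33 CPM in P14 MIA. Every P14 library exceeded every E15.5 library. The increase was 1.96 ± 0.36 (SE, log2) in saline (edgeR, adjusted p = 3.65e-04) and 2.41 ± 0.41 in MIA (3.51e-04).

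Tnfaip3 was at 5.25, 10.8 and 9.06 CPM in E15.5 saline and 7.05, 8.33 and 10.2 CPM in E15.5 MIA. At P14 it was at 17.7, 21.3, 14.7 and 14.6 CPM in saline and 18.6 and 20.0 CPM in MIA. The stages did not overlap, and the log2 fold change was 0.85 ± 0.21 in saline (edgeR, adjusted p = 0.00385) and 1.04 ± 0.25 in MIA (0.00384). Il18, the IL-1 family cytokine that induces interferon-γ, rose from 34.0–40.9 to 50.7–56.1 CPM in saline and from 33.2–37.1 to 53.9–55.4 CPM in MIA. Its log2 changes were 0.35 ± 0.11 (SE; adjusted p = 0.0190) and 0.49 ± 0.13 (0.00887). The saline call on Il18 was lost without P14 saline 1 (0.29, adjusted p = 0.0598) and the MIA call without P14 MIA 1 (0.47, 0.0617) or in microglia-marker cells alone (0.33, 0.0571).

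Nfkbia was at 55.7, 70.7 and 54.6 CPM in E15.5 saline and 83.8, 52.8 and 40.0 CPM in E15.5 MIA. At P14 the values were 87.8, 71.0, 91.1 and 90.7 CPM in saline and 85.4 and 129 CPM in MIA, so the stages did not overlap in either treatment. The log2 change was 0.32 ± 0.23 (SE) in saline (edgeR, adjusted p = 0.278) and 0.71 ± 0.27 in MIA (0.0489). The MIA call did not hold without P14 MIA 2 (0.39, adjusted p = 0.43), without E15.5 MIA 2 (0.68, 0.102), without E15.5 MIA 3 (0.53, 0.118), with label numbers as blocks (0.73, 0.0600), in microglia-marker cells alone (0.58, 0.134), with DESeq2 size factors (0.69, 0.0608), in cells of at least 1000 genes (0.71, 0.0524) or without the richest cells (0.73, 0.0505). The high Nfkbia level of E15.5 MIA 1 came with the largest share of neuron-marker cells (11.4%) and with a summed level of 13 immediate early and dissociation genes of 1098 CPM, against 420–472 CPM in the other E15.5 libraries, and their part in the result was not tested. Il1a changed little, by 0.15 ± 0.16 in saline and −0.04 ± 0.20 in MIA (adjusted p = 0.473 and 0.879).

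Between E13.5 and E15.5 fewer genes changed and the members rose or did not pass the test. In saline 3 of 9 members rose and 0 fell, beside 10.7% of genes higher and 9.86% lower (20.6% in all). In MIA 2 rose and 0 fell, beside 16.4% and 14% (30.4% in all). The libraries of the stages did not overlap for 4 members in saline (Il1a, Il6, Il18 and Nfkbia), beside 39.9% of genes, and for Il18 alone in MIA, beside 33.9%. Nfkbia rose by 0.94 ± 0.25 (SE, log2) in saline (edgeR, adjusted p = 0.0161), from 28.0, 29.5 and 34.9 CPM, and by 0.77 ± 0.25 in MIA (0.0311), from 30.8, 26.9 and 42.5 CPM. Il18 rose by 0.43 ± 0.12 in saline (adjusted p = 0.0201), from 30.8, 24.8 and 23.7 CPM, and by 0.34 ± 0.12 in MIA (0.0498), from 31.5, 25.6 and 25.3 CPM. In both treatments the mean level of each gene was lowest at E13.5 and highest at P14.

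Il6 had a log2 change of 1.5 ± 0.41 in saline and passed the test (edgeR, adjusted p = 0.0184) on few molecules, 27 UMIs in the 3 E13.5 libraries against 115 at E15.5, and by 0.99 ± 0.46 in MIA (0.114). The calls at this step were fragile. With shared barcodes removed, Nfkbia and Il18 no longer passed in MIA (0.61, adjusted p = 0.127; 0.31, adjusted p = 0.168). In saline, Nfkbia was not called without E13.5 saline 1 (0.88, adjusted p = 0.0565), E13.5 saline 2 (0.94, 0.0551) or E15.5 saline 2 (0.83, 0.0658). Il18 was not called in saline without E13.5 saline 2 (0.42, 0.065), E13.5 saline 3 (0.40, 0.0672) or E15.5 saline 3 (0.40, 0.0629), nor Il6 in cells thinned to 2000 UMIs (1.26, 0.314) or without E13.5 saline 1 (1.30, 0.0628) or saline 2 (1.49, 0.0627). In MIA, Nfkbia was not called in thinned cells (0.57, 0.201), nor without E13.5 MIA 1 (0.74, 0.0843), E13.5 MIA 2 (0.61, 0.118) or E15.5 MIA 1 (0.46, 0.153), and Il18 was not called with no filter on low counts (0.34, 0.0793), in thinned cells (0.38, 0.098), or without E13.5 MIA 2 (0.26, 0.169), E13.5 MIA 3 (0.33, 0.1), E15.5 MIA 2 (0.31, 0.111) or E15.5 MIA 3 (0.37, 0.052). For Tnfaip3 the saline change was 0.43 (adjusted p = 0.187), and it passed without E15.5 saline 1 (0.69, 0.0194).

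**Figure D2:**
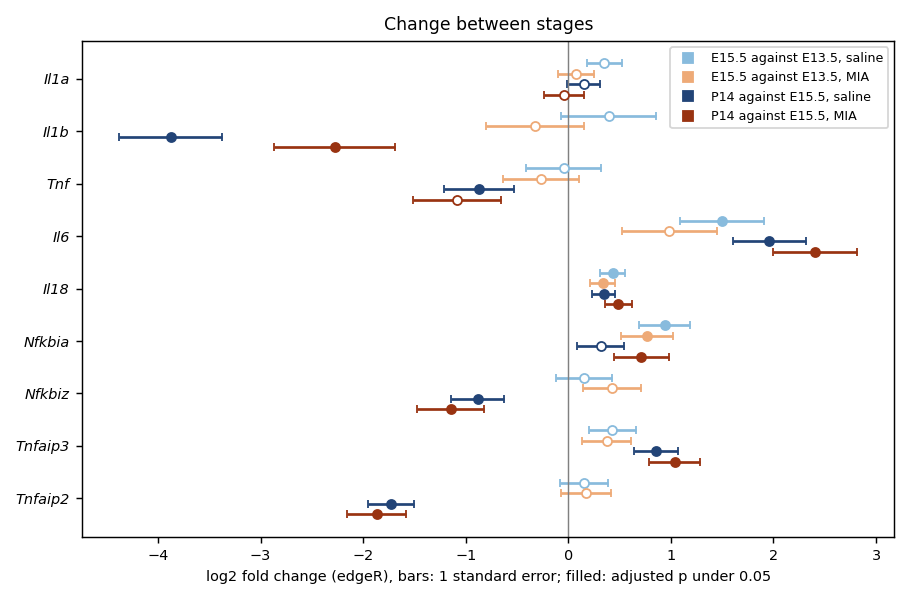
Log2 fold change of 9 genes between stages (edgeR; bars are 1 standard error, filled points have an adjusted p under 0.05), for E15.5 against E13.5 (light) and P14 against E15.5 (dark), in saline (blue) and MIA (orange). Il1b (−3.88 and −2.28) and Tnfaip2 (−1.73 and −1.87) lie farthest to the left and Il6 (1.96 and 2.41) farthest to the right from E15.5 to P14.

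The other genes of the pathway are given beside the 48.0% (saline) and 38.1% (MIA) of all genes called between E15.5 and P14. Of 5 NF-kB subunit genes, 4 rose in saline and 3 in MIA and 0 fell, with Rel at 0.91 and 0.97, Rela at 0.64 and 0.58 and Nfkb1 at 0.60 and 0.61 (log2, saline and MIA). Of 11 tested IkB and other brake genes outside the members, 4 rose and 1 fell in saline and 3 rose and 1 fell in MIA. Nfkbie, the IkBε gene, rose by 1.07 and 1.21, while Bcl3, a nuclear IkB protein, fell by 2.18 and 2.81. Upstream of NF-kB, 5 of 19 kinase and adaptor genes rose and 2 fell in saline, among them the kinase genes Irak2 (0.87) and Ikbke (−1.82), against 4 and 0 in MIA.

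Among 18 tested NF-kB target genes outside the members, 11 fell and 1 rose in saline and 10 fell and 1 rose in MIA, with a median log2 change of −1.04 and −1.15 against 0.03 and −0.03 over all genes. The chemokine genes Cxcl10 (−5.50 and −4.19), Ccl5 (−5.10 and −3.39) and Ccl3 (−3.71 and −3.69) and the co-stimulatory receptor gene Cd40 (−3.97 and −4.39) fell most. The direction of Il1b, Tnf and Tnfaip2 was thus that of most genes on this list, and the direction of Tnfaip3 and Il6 was that of the subunits. Of 10 interferon-response genes, 9 fell and 0 rose in both treatments, led by Rsad2 (−3.48 and −3.39).

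Of 12 genes for cytokine processing and the inflammasome, 3 rose and 2 fell in saline and 4 rose and 2 fell in MIA, again beside 48.0% and 38.1% of all genes called. Il1rn, which encodes the IL-1 receptor antagonist, fell by 4.25 ± 0.65 (SE, log2) in saline (edgeR, adjusted p = 7.85e-05) and by 5.07 ± 0.88 in MIA (4.01e-04), and Casp1, the protease that matures IL-1β and IL-18, fell by 0.80 and 0.56. The inflammasome sensor genes Nlrp3 (0.87 and 0.89) and Aim2 (0.59 and 0.57) rose. Among 10 tested receptor genes 3 rose and 3 fell in saline and 3 rose and 2 fell in MIA. Il18rap, an IL-18 receptor subunit, fell by 3.67 and 4.11, Sigirr, a negative regulator of IL-1 family receptors, fell by 1.18 and 1.19, and Il6st, the gp130 gene, rose by 1.21 and 1.19. Of 10 genes for mRNA decay and feedback, 5 rose and 1 fell in saline and 4 rose and 2 fell in MIA. Socs3 (1.22) and Zfp36 (0.95), whose product destabilizes the Tnf mRNA, were among those that rose in saline. Dusp2 (−1.15 in saline and −1.83 in MIA) and Dusp1 (−2.31 in MIA) fell.

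Signs of handling also differed between the stages. The summed level of the 13 immediate early and dissociation genes was 325–464 CPM at E13.5 and 537–711 CPM at P14. At E15.5 it was 424–472 CPM in saline and 420–1098 CPM in MIA, highest in MIA 1. In saline the sum was higher at P14, at 570–711 CPM. Of the single genes, 2 rose and 4 fell from E15.5 to P14 in saline. Klf2 (−3.23) and the heat shock gene Hspa1a (−2.87) were among those that fell. In MIA 1 rose and 6 fell, with a median of −2.06, among them Fos (−5.27), Hspa1a (−3.93) and Klf2 (−3.45). Markers of other cells moved between E15.5 and P14 too: the summed level of 8 border macrophage markers was 189–563 CPM at E15.5 and 90.5–154 CPM at P14, that of 8 neuron markers 148–1943 and 20.7–41.7 CPM, and that of 8 blood myeloid markers, of which at least 4 were at 0 in each of the E15.5 and P14 groups, 6.12–12.2 and 9.6–14.4 CPM. The 6 dividing cell markers summed to 390–1429 CPM at E15.5 and 20.3–173 CPM at P14. Sums of the 7 red blood cell markers were 166–5331 and 3.87–1717 CPM. For the 7 endothelial and mural markers they were 18.6–41.0 and 31.8–41.7 CPM. In microglia-marker cells alone, Il1b, Tnfaip2, Nfkbiz, Il6 and Tnfaip3 kept their calls in both treatments. That filter counts microglia and neuron markers only, so it was not set to remove border macrophages. The parts of handling and of cell composition in the changes of the members were not tested. Stage and library preparation cannot be told apart since a library held 1 stage.

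From E13.5 to E15.5, where 20.6% of all genes passed in saline and 30.4% in MIA, 1 of 5 subunit genes rose in saline and 2 in MIA. Of these Relb rose in saline (0.74) and MIA (0.82), and Rela rose in MIA (0.31). Ccl5 rose by 7.81 and 7.79 and Cxcl10 by 4.20 and 2.73 among the 18 tested target genes, of which 4 rose and 1 fell in saline and 6 rose and 1 fell in MIA. In the interferon list 7 of 10 genes rose in saline and 2 in MIA, where 1 fell, with Ifit3 at 2.90 ± 0.61 (edgeR, adjusted p = 0.00464) and 1.80 ± 0.62 (0.0375). Il6ra, the IL-6 receptor gene, rose by 0.67 and 0.76. Cell markers moved at this step too. Of 8 neuron markers, 5 rose in saline and 8 in MIA, and 8 of 10 microglia markers rose in each treatment. Of 6 dividing cell markers, 1 fell in saline and 5 in MIA. Of 8 border macrophage markers, 1 rose and 0 fell in saline and 1 rose and 1 fell in MIA, with median log2 changes of −0.89 and −1.38. Of 2 tested blood myeloid markers, 0 were called in saline and 1, Ccr2, fell in MIA (−2.76). The part of cell composition in the changes was not tested.

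The comparison of MIA with saline asks whether the maternal challenge changed these genes in the offspring's microglia 1 day, 3 days or weeks later. No member passed the test at any stage, and neither did any other gene: 0 of 12994 genes at E13.5, 0 of 14020 at E15.5 and 0 of 13640 at P14 (0.0% called in each). At an unadjusted p under 0.05 there were 101 (0.777%), 54 (0.385%) and 417 (3.06%) genes, and DESeq2 called 2, 0 and 1. Each of these unadjusted shares was below the 0.05 due when no gene differs, and the reason was not tested. The unadjusted counts also varied with single libraries. With 1 left out they ran from 69 to 686 at E13.5 (highest without MIA 3), 42 to 970 at E15.5 (highest without MIA 3) and 176 to 1339 at P14 (highest without saline 1). In a fit over all stages, 0 of 15121 genes were called for the mean MIA effect, for the change of the effect from E13.5 to E15.5 or for that from E15.5 to P14, with 398 (2.63%), 89 (0.589%) and 181 (1.2%) genes at an unadjusted p under 0.05 and 0 by DESeq2 in each. The count for the mean effect ran from 237 to 1115 (without E15.5 MIA 3), and those for its changes from 68 to 326 (without E13.5 MIA 3) and 113 to 594 (without E15.5 MIA 3). A p that misses the threshold does not show that the levels were the same.

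At E13.5 Il1b was at 4.36, 2.76 and 3.64 CPM in saline and at 6.33, 2.60 and 4.94 CPM in MIA, and Tnf was at 5.53, 4.43 and 5.20 CPM in saline and at 2.81, 6.49 and 8.66 CPM in MIA. The MIA libraries lay on both sides of the saline libraries for both genes. Their log2 changes were 0.40 ± 0.31 for Il1b and 0.32 ± 0.31 for Tnf (SE), and the other 6 tested members lay between −0.14 (Nfkbiz) and 0.13 (Nfkbia). Il6, with 27 and 32 UMIs, was not tested. At E15.5 the 9 tested members lay between −0.34 ± 0.52 (Il1b) and 0.13 ± 0.36 (Nfkbiz), and 0 members at either stage had libraries that did not overlap, beside 3.68% and 2.55% of genes.

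At P14 Il1b was the member that differed most, at 1.26 ± 0.53 (SE, log2; edgeR, adjusted p = 0.992, unadjusted p = 0.0472). It was also the 1 member whose MIA and saline libraries did not overlap, beside 10.3% of genes. Without the richest cell of each library the MIA values of 0.22 and 0.15 CPM lay within the saline range of 0.12–0.37 CPM, and Il1b no longer passed the filter for a test. Nfkbia differed by 0.35 ± 0.17 and Il1a by −0.36 ± 0.17 (adjusted p = 0.992 for both), and both groups overlapped for each gene. None of the pathway lists held a called gene; the medians of the target genes were 0.08, 0.07 and 0.08 in the order of the stages. The interferon list had a median of 1.05 at E13.5, with all 10 genes between 0.25 and 1.98, and −0.22 and −0.20 at the later stages.

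**Figure D3:**
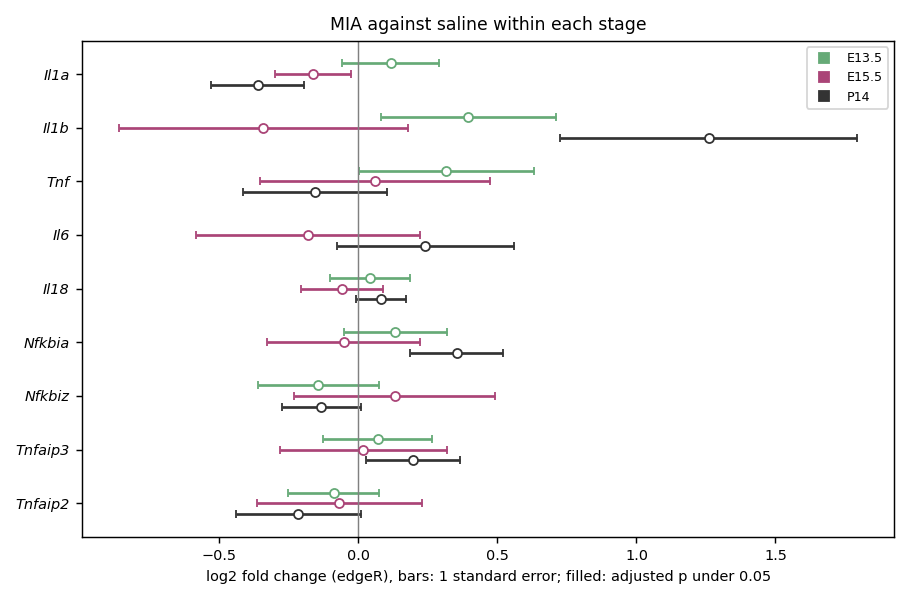
Log2 fold change of 9 genes between MIA and saline libraries at E13.5 (green), E15.5 (purple) and P14 (black), by edgeR, with bars of 1 standard error; open points did not pass an adjusted p of 0.05, and Il6 was not tested at E13.5. All points are open, and Il1b at P14 (1.26) lies farthest from 0.

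Shares of cells with a UMI of a gene were compared after each cell was thinned to 2000 UMIs, which left out the 4.22–27.9% of cells per library with fewer. Nfkbia was found in 6.02% ± 0.71 (SD, n = 3) of E13.5 saline cells, 10.1% ± 1.3 at E15.5 and 14.6% ± 1.5 (n = 4) at P14, and in 6.80% ± 1.9, 9.61% ± 4.3 and 18.3% ± 4.7 (n = 2) of MIA cells. Il1b was found in 0.722% ± 0.15, 0.662% ± 0.41 and 0.0542% ± 0.018 of saline cells and in 0.487% ± 0.19, 0.500% ± 0.10 and 0.0578% ± 0.052 of MIA cells. At P14 the MIA libraries were on both sides of the saline range of 0.0279–0.0683%, at 0.0946% in MIA 1 and 0.0210% in MIA 2.

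Tnf was found in 0.877% ± 0.33, 0.752% ± 0.32 and 0.555% ± 0.073 of saline cells, a range in which the stages overlap, and Il6 in 0.0596% ± 0.070, 0.144% ± 0.033 and 0.625% ± 0.25. In saline, Tnfaip3 went from 0.992% ± 0.032 through 1.55% ± 0.48 to 3.33% ± 0.58 and Tnfaip2 from 2.96% ± 0.68 through 3.14% ± 0.57 to 1.11% ± 0.26. In MIA, Tnfaip3 did not rise at the first step, at 1.56% ± 0.80, 1.41% ± 0.033 and 3.77% ± 0.044. The MIA means of Tnfaip2 were 2.02%, 2.79% and 1.03%. Those of Tnf were 1.12%, 0.586% and 0.649%, and those of Il6 0.0133%, 0.0745% and 0.776%. The embryonic shares were set beside those of neuron-marker cells, and no such comparison was made at P14. In neuron-marker cells (199 at E13.5 and 790 at E15.5, with medians of 2323 and 2310 UMIs before thinning against 13293 and 10028.5 in microglia-marker cells) Il1b was found in 0% and 0%, which allows shares of up to 1.51% and 0.380%, and Tnf in 0% and 0.127%. At E13.5 that limit is above the 0.708% of microglia-marker cells with Il1b and the 1.29% with Tnf, so the neuron-marker cells were too few there to set a background for either gene.

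The share in neuron-marker cells differed between the members. Nfkbia was found in 2.01% of neuron-marker cells at E13.5 and 6.20% at E15.5, against 7.01% and 10.7% of microglia-marker cells, Il18 in 2.01% and 0.886% against 5.21% and 7.39%, Tnfaip3 in 0.503% and 0.506% against 1.06% and 1.51%, and Il1a in 0% and 0.127% against 8.30% and 8.96%. Nfkbia was thus also seen in droplets with neuron markers, in 4 of 199 at E13.5 and 49 of 790 at E15.5, and Il18 in 4 and 7. The values of other members rest on few such cells, with 1 and 4 for Tnfaip3, 0 and 3 for Nfkbiz, 1 and 0 for Tnfaip2 and 0 and 1 for Il1a. Within microglia-marker cells alone, the log2 change of Nfkbia from E13.5 to E15.5 was 1.00 in saline (edgeR, adjusted p = 0.0155) and 0.89 in MIA (0.0239).

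Il1b, and at E15.5 also Tnf, had a large part of its UMIs in few cells. Cells with at least 5 UMIs of Il1b numbered 45 of 13394 at E13.5, 43 of 24554 at E15.5 and 3 of 29899 at P14, and they held 41.1%, 43.8% and 53.8% of all Il1b UMIs. For Tnf there were 24, 32 and 2 such cells with 9.88%, 32.8% and 2.26% of its UMIs, so at E13.5 most Tnf UMIs were spread over the 1070 cells that had any. Such cells also held 34.0%, 17.2% and 2.69% of the UMIs of Il1a, a more abundant gene, but there they numbered 458, 306 and 37. The cut of 5 UMIs was not adjusted for depth, and the median cell held 12221, 9580 and 5255 UMIs at E13.5, E15.5 and P14. Counts of such cells thus also follow depth between stages. Il1b-rich cells with at least 9 of the 10 microglia markers numbered 44, 41 and 3, and Tnf-rich ones 23, 32 and 2. The share of all cells with as many was not computed. Of the rich cells, 0 had 3 or more blood myeloid markers. This count says little, since no library held more than 2 such cells among all its cells. At least 3 border macrophage markers were found in 9, 3 and 0 of the Il1b-rich and 3, 1 and 0 of the Tnf-rich cells, beside 12.8%, 6.82% and 0.579% of all cells.

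These cells were unevenly spread over libraries. E13.5 MIA 3, with 6375 of the 13394 cells of its stage, held 28 of the 45 Il1b-rich and 20 of the 24 Tnf-rich cells of its stage, and E15.5 saline 2 held 18 of 43 and 12 of 32. E15.5 saline 2 was also the library with the highest Il1b level (8.91 CPM). Both cytokines reached 5 UMIs in 2 cells at E13.5 and 6 at E15.5. The rich cells were larger than most, with a median of 28666 UMIs for Il1b and 36296 for Tnf at E13.5 against 12221 over all cells, and 15503 and 15560 against 9580 at E15.5.

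The Tnf-rich cells of the 2 embryonic stages differed in what else they held. Ifit3, an interferon-induced gene, was found in 22 of 32 Tnf-rich cells at E15.5 (68.8%, beside 2.68% of all cells) and in 0 of 24 at E13.5, where 1.63% of all cells had it. At E15.5 the 22 cells came from all 6 libraries, 1, 8 and 3 from saline and 6, 2 and 2 from MIA. Nfkbiz was found in 28 of 32 (87.5%, beside 9.31%) against 12 of 24 (50%, beside 12.4%), and Ccl4 in 26 of 32 (81.2%, beside 11.3%) against 8 of 24. Nfkbia was in 31 of 32 and 19 of 24, and Ccl3 in 26 and 19. The difference between the stages was not tested, and 20 of the 24 E13.5 cells came from 1 library. Among Il1b-rich cells, Ifit3 was found in 20 of 43 at E15.5, 14 of them in saline 2, and in 4 of 45 at E13.5 (8.89%, beside 1.63% of all cells).

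**Figure D4:**
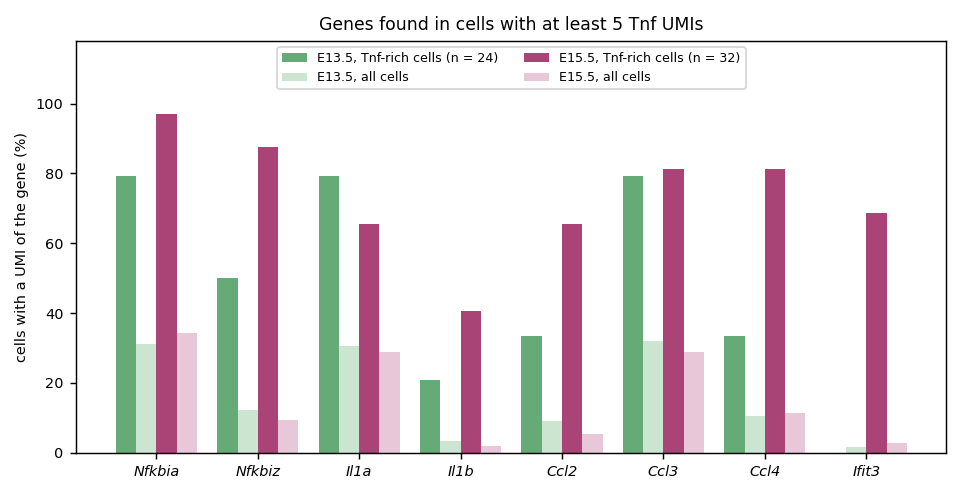
Share of cells with at least 1 UMI of each gene (%, not thinned), in cells with at least 5 Tnf UMIs (dark bars, 24 at E13.5 and 32 at E15.5) and in all cells of the stage (light bars). Ifit3 is in 68.8% of the Tnf-rich cells at E15.5 and in 0 at E13.5, while Nfkbia and Ccl3 are common in both.

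Co-detection was then counted at equal depth, in all cells with Tnf, the Tnf-rich cells included. In cells thinned to 2000 UMIs, the number of cells with both genes was compared with the number due if the genes were independent within each library, with an exact Poisson 95% interval that covers counting error only. At E15.5, 28 of 150 cells with Tnf also had Ifit3, against 2.24 expected, and all 6 libraries were above their expectation (2, 9, 6, 6, 4 and 1 cells). At E13.5 it was 2 of 129 against 0.656, and at P14 1 of 165 against 1.35. Removing shared barcodes left the E15.5 count at 28 of 147, and in cells thinned to 4000 UMIs it was 39 of 240 against 4.43. Saline contributed 17 of 85 cells and MIA 11 of 65. With the Tnf-rich cells left out, a choice made after their Ifit3 was seen, 12 of 123 cells with Tnf had Ifit3 against 1.63 expected, above expectation in 5 of 6 libraries.

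Of the 45 pairs of members, 17, 21 and 22 had an expected count of at least 5 at E13.5, E15.5 and P14. The observed count exceeded the expected one in 15, 21 and 14 of these, and the interval lay above 1 in 2, 12 and 2, with median ratios of 1.30, 1.34 and 1.03. At E13.5 and E15.5 the observed count was thus above the expected one in most of these pairs, though at E13.5 few intervals lay above 1. The same share over pairs of other genes was not computed. At P14 the median ratio was close to 1. The pairs with enough cells expected were not the same at each stage, so the medians are over different pairs. The intervals at E13.5 rest on 10389 cells, against 21783 at E15.5. Each ratio is a description, since cells of a library share its depth and handling. Microglia-marker cells made up 79.5–95.9% of a library at E15.5 and 98.5–99.4% at P14, and the part of cell composition in the ratios was not tested.

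Among pairs with at least 5 cells expected, the highest ratio joined a cytokine with a feedback gene. At E15.5 Tnf and Nfkbia were found together in 54 cells against 16.7 expected (ratio 3.24, 2.43–4.23, above 1 in 6 of 6 libraries), and at P14 in 41 against 26.5 (1.54, again 6 of 6). Il1a and Il1b, neighbours in the IL-1 gene cluster, were together in 30 cells against 9.71 at E15.5 (3.09) and 15 against 5.73 at E13.5 (2.62). Nfkbia and Tnfaip3 gave 2.34 at E13.5, 2.01 at E15.5 and 1.21 at P14. Without the Tnf-rich cells, Tnf and Nfkbia gave 34 against 13.6 at E15.5 (2.51, 1.74–3.50). Of the pairs with fewer than 5 cells expected at E15.5, 3 are named here for their excess, after their values were seen: Il1b and Tnf were together in 8 cells against 0.859, Il1b and Nfkbiz in 17 against 2.55 and Tnf and Nfkbiz in 20 against 3.25. Il1b and Tnf were together in 0 cells at E13.5 and 1 at P14. Some pairs with so few cells expected also had an excess at the other stages. At P14 these were Nfkbiz with Tnfaip2 (11 against 4.57) and Tnf with Nfkbiz (6 against 2.45), and at E13.5 Il1b with Nfkbia (11 against 4.91). Others lay below expectation, such as Tnf with Tnfaip2 at E13.5 (1 against 3.87) and Il6 with Nfkbiz at P14 (1 against 2.72). For Il1a with Tnfaip3 at P14 the ratio was below 1 (0.68, 0.53–0.87).

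Beyond the members, Tnf at E15.5 went with Ccl4 (44 cells against 7.74, ratio 5.69, and 23 against 6.11 without the Tnf-rich cells, ratio 3.76, above 1 in 4 of 6 libraries), with the adhesion gene Icam1 (3.02) and with the activation marker Cd83 (2.25). The pair of Tnf and Ccl4 was not particular to E15.5. Without the Tnf-rich cells it was found in 12 cells against 4.05 at E13.5 and 12 against 1.75 at P14. At each of these stages 5 of 6 libraries were above expectation, on fewer than 5 cells expected. Nfkbiz went with Ifit3 (4.48), Ccl2 (3.64) and Ccl4 (3.04) at E15.5. Il1b was found less often than independence gives in cells with the proliferation marker Mki67, at 0.53 (0.27–0.93) at E13.5 and 0.38 (0.10–0.97) at E15.5. Against the homeostatic marker P2ry12, Il1b and Tnf gave ratios of 1.00 and 1.02 at E13.5 and 1.01 and 1.02 at E15.5, and against the border macrophage marker Mrc1 they gave 0.84 and 1.02 and then 0.89 and 0.58.

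**Figure D5:**
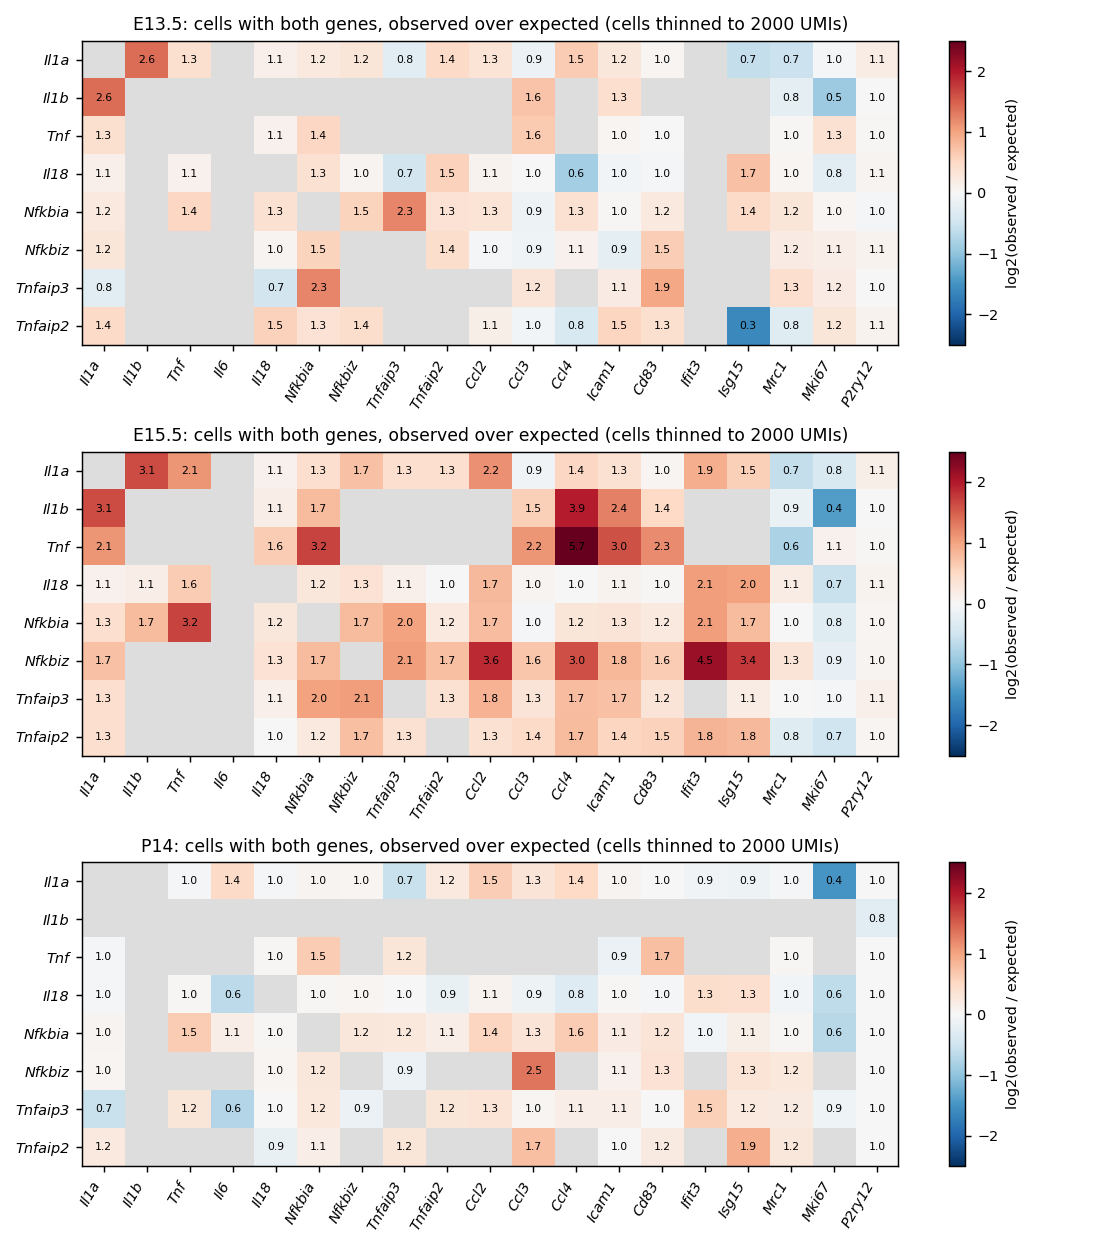
Ratio of the observed to the expected number of cells with both genes at E13.5, E15.5 and P14 (cells thinned to 2000 UMIs, expected counts summed within libraries; colour is the log2 ratio, and grey marks pairs with fewer than 5 cells expected). Ratios over 1 (red) are most frequent in the E15.5 panel, for example Tnf with Ccl4 (5.69), Nfkbiz with Ifit3 (4.48) and Tnf with Nfkbia (3.24), and the P14 panel is mostly near 1.

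Across the 18 libraries, after the mean of each of the 6 groups was taken off, the 5 genes whose log2 CPM correlated best with Nfkbia among 8032 genes were Smpd2 (Pearson's r = 0.88), Herpud1 (0.88), Rhob (0.86), Tbc1d10a (0.86) and Gdpd1 (0.86). For Nfkbiz they were Myo1e (0.86), Mast4 (0.82), Abcd2 (0.82), Bmp1 (0.80) and Stam (0.80), and for Tnfaip2 they were Sec62 (0.92), Rps21 (0.90), Mitd1 (0.88), Zcchc9 (0.86) and Tmco1 (0.85). The other members were not among these genes, and the correlations of Il1a, Il18 and Tnfaip3 with all genes were not computed. Between pairs of these 6 members, the correlation farthest from 0 was that of Il1a with Il18 (r = −0.76). These values describe 18 points that share library depth and composition. Il1b and Tnf were below the 10 CPM set for this measure.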

How the data were processed

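Counts were deposited by the authors as gene-by-cell tables of UMIs, raw and not normalized. They were made from 10x Genomics 3′ libraries with Cell Ranger 3.1.0 on mm10 per the file headers and the submitters' processing notes. The paper names a later version of Cell Ranger for these libraries. Strand use and filters before deposit were not given in the sources used here. Of the 26 libraries, the 8 from nuclei were not used here. Groups came from the sample labels. Of 73356 barcodes, cells with at least 500 genes and at most 20% mt- UMIs were kept, and UMIs were summed per library. Library totals of 6160925 or more UMIs limit the precision for genes at a few CPM, and the intervals cover counting error only.

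Each stage was tested for MIA against saline in edgeR 4.0.16 (R 4.3.3; TMM, filterByExpr, glmQLFit and glmQLFTest, Benjamini-Hochberg, threshold 0.05), and stages and the mean and change of the MIA effect were tested in a fit of all 18 libraries. The standard error is the log2 fold change over the square root of F. The study used DESeq2 with sex and sequencing batch, for all microglia together and for each substate. With all microglia together it reported genes higher after MIA at E13.5, among them Ccl12 and Isg15. At P14 it reported lower Hes1 and Lars2 after MIA. Batch is not in the labels, and cells were neither split by sex nor by substate here. Alternatives were DESeq2 1.42.0, its size factors, no filter, a replicate block, microglia-marker cells, doublets removed (scanpy 1.11.5, Scrublet, 0.8% per 1000 cells), 1000 genes, thinned cells, each library left out and, chosen after seeing the data, shared barcodes kept once or removed and the richest cell left out. Saline and MIA libraries of the same number deviated together at E15.5 (correlations of 0.230, 0.160 and 0.334), not in every pair at E13.5 or P14; the pairing comes from label numbers alone. Scripts were tested on simulated data. For MIA against saline, 64%, 22% and 62% of simulated 2-fold changes were found at E13.5, E15.5 and P14. False calls there numbered 18, 6 and 7, in simulations of 12994, 14020 and 13640 genes. The changed genes were drawn at random from all that passed the filter, with no batch or pairing. The shares found thus do not hold for genes as low as Il1b and Tnf in particular.

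The members and gene lists were chosen with earlier results of these data known. All members are named; from other lists, at most the 4 called genes with the largest change per list and comparison. Cell groupings into Il1b-rich and Tnf-rich cells (5 UMIs or more) were set after the values were seen. A κB match is a match to the κB consensus on either strand in the 250 bases before a RefSeq start.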

Additional observations from a re-analysis of the deposited data

Results flagged for a closer look

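In groups of 4 libraries, 18 member values were checked for a library far from the other 3, which chance gives in about 1 in 20 groups. At P14 in saline, Il18 was highest in saline 1 at 56.07 CPM, with the others between 50.66 and 51.52 CPM. Nfkbia was lowest in saline 2 at 70.96 CPM, with the others between 87.84 and 91.15 CPM. The share of cells with Nfkbia at 2000 UMIs was lowest in the same library, at 12.38% against 15.06–15.6%, a value that rests on the same molecules.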

How the results depend on the processing

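Counts of called genes moved under some settings. For MIA against saline at E13.5 the count was 0, and it was 2 with DESeq2, 1 with the replicate block and 0–4 when a library was left out (4 without E13.5 MIA 3 and 1 without saline 1). At P14 DESeq2 gave 1. From E13.5 to E15.5 the 3110 saline calls became 1658 in thinned cells and 1528–4314 when a library was left out, lowest without E15.5 saline 2, and the 4591 MIA calls became 1806 in thinned cells and 1861 with shared barcodes removed. The 5755 MIA calls from E15.5 to P14 became 3120–6468 when a library was left out, lowest without P14 MIA 2. The replicate block, which pairs libraries by their label number, gave 1, 0 and 0 MIA calls by stage and 3354, 4263, 7327 and 6023 stage calls; at E15.5, where the numbers deviated together, it changed no call. Of the members it ended 1 call, Nfkbia from E15.5 to P14 in MIA (0.73, edgeR adjusted p = 0.0600).

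Log2 changes of members near 0 turned sign. For MIA against saline, Tnfaip3 at E13.5 was −0.017 without the richest cells. At E15.5 Tnf was −0.34 in thinned cells and −0.081 without the richest cells, Il18 0.0060 and Nfkbia 0.019 in microglia-marker cells, Nfkbiz −0.065 in thinned cells, and Tnfaip3 −0.0015 with DESeq2, −0.00094 with its size factors, −0.019 with no filter and −0.15 in thinned cells. At P14 Tnf was 0.25 in thinned cells, and Il6 −0.11 and Tnfaip3 −0.019 with the block. From E13.5 to E15.5, Tnf in saline was 0.015 in microglia-marker cells, 0.021 without doublets and 0.066 in thinned cells, and in MIA Il1a was −0.10 with shared barcodes removed and Il1b 0.12 in thinned cells. With a library left out, the MIA changes at E13.5 ran from −0.040 to 0.24 (Il1a), −0.18 to 0.60 (Tnf), −0.087 to 0.14 (Il18), −0.13 to 0.29 (Nfkbia), −0.31 to 0.11 (Nfkbiz) and −0.064 to 0.29 (Tnfaip3). Those at E15.5 ran from −0.65 to 0.47 (Il1b), −0.28 to 0.38 (Tnf), −0.39 to 0.070 (Il6), −0.39 to 0.13 (Nfkbia), −0.18 to 0.35 (Nfkbiz), −0.22 to 0.25 (Tnfaip3) and −0.25 to 0.19 (Tnfaip2), and those at P14 from −0.36 to 0.022 (Tnf), −0.059 to 0.49 (Il6), −0.30 to 0.021 (Nfkbiz) and −0.49 to 0.015 (Tnfaip2). From E13.5 to E15.5 they ran in saline from −0.39 to 0.72 (Il1b), −0.29 to 0.13 (Tnf), −0.018 to 0.44 (Nfkbiz) and −0.08 to 0.34 (Tnfaip2) and in MIA from −0.036 to 0.24 (Il1a) and −0.55 to 0.24 (Tnf), and from E15.5 to P14 in MIA from −0.18 to 0.10 (Il1a). None of these changes had passed the test, and the cause was not tested.

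Of the other log2 changes of members, 686 kept direction and call, 16 lost the call and 2 gained one when a setting was changed, and 301, 30 and 2 did so when a library was left out. In each fit without a library, Tnfaip2, Il6 and Tnfaip3 kept their calls from E15.5 to P14 in both treatments. Of the co-detection counts, 174 stayed within their interval and 5 moved. Shares of cells moved with the depth to which cells were thinned, by construction. Depth limits Il6 and Il10 in the embryo and Il1b at P14, where few UMIs carry each value.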
